A study of Mus musculus with 7 samples.

Results

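The genes examined here are 38 genes that lie around *Mybpc2* on mouse chromosome 7, chosen by position, from *Shank1* on the low-coordinate side to *Bcat2* on the high-coordinate side. The comparison asked whether *Aldh16a1*, a gene 630 kb from the start of *Mybpc2*, fell alone or with its neighbours when *Mybpc2* was disrupted. Of the 38 genes, 33 were among the 12239 genes of the expression table, and *Il4i1*, *Aspdh*, *Lrrc4b*, *Shank1* and *Ppfia3* were not analysed here. RNA from the tibialis anterior, a fast-twitch muscle of the lower leg, was sequenced from male mice aged 5 to 6 months on the FVBN background. The 4 wild-type libraries (FVBN/WT, hereafter WT) were compared with 3 libraries of FVBN/C2-/- mice (hereafter C2-/-). In the C2-/- allele a Neo cassette between LoxP sites stands in place of *Mybpc2* exons 2 to 22. The cassette therefore lies in the same stretch of chromosome 7 as the genes described. No treatment was given to either group. The titles number the libraries but do not name animals, whereas the paper counts 4 WT and 3 C2-/- mice. The p-values measure the spread between these libraries.

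*Mybpc2* encodes the fast skeletal form of myosin-binding protein C, a protein of the thick filament that binds myosin and actin and tunes contraction. Its neighbours are not a pathway. They are mostly widely expressed genes of transcription, DNA replication, membrane traffic and metabolism that share a gene-rich stretch of the chromosome. *Aldh16a1* encodes an unusual member of the aldehyde dehydrogenase family with a duplicated enzyme domain, and *Pih1d1*, the gene that starts beside it, encodes a subunit of the R2TP chaperone complex, which helps to assemble large protein complexes together with the ATPase encoded by *Ruvbl2*.

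*Aldh16a1* (minus strand, GRCm38.p6, start at 45154536) and *Pih1d1* (plus strand, start at 45154303) run into each other from start sites 233 bases apart. Each start site is that of the gene's first RefSeq promoter entry, and the RefSeq gene of *Pih1d1* begins at 45150613. In the GENCODE annotation their exons share 149 bases on opposite strands. The 250 bases before each RefSeq start site are shown, which leave out the bases between the start sites. They span chr7:45154537-45154786 (minus strand) for *Aldh16a1*, which lies inside *Pih1d1*, and chr7:45154053-45154302 (plus strand) for *Pih1d1*, which lies inside *Aldh16a1*. Capitals mark GC boxes (GGGCGG) and CCAAT boxes (CCAAT) read on either strand.
Aldh16a1: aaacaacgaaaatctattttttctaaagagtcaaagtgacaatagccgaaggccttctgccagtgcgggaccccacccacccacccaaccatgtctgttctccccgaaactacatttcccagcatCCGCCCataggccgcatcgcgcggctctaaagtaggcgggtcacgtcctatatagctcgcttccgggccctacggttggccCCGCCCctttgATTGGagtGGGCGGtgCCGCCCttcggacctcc
Pih1d1: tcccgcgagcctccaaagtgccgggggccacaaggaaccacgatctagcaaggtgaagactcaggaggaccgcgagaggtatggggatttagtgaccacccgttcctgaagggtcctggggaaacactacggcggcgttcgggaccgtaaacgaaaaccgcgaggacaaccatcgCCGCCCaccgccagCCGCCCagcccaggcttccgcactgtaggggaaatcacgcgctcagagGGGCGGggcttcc
The *Aldh16a1* stretch held 4 GC boxes and 1 CCAAT box, and the *Pih1d1* stretch held 3 GC boxes. TATAAA, which was also searched on both strands, was in neither. Among 32817 RefSeq promoters cut to the same length, 32.7% held a GC box, 33.8% a CCAAT box and 12.4% TATAAA. RefSeq windows were found for 34 of the 38 genes, of which 20 held a GC box, 10 a CCAAT box and 1 TATAAA. A match of letters is a description and not a binding site.

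The libraries differed in depth, which bears on every value below. WT replicates 1 to 3 held 14929214 to 15464499 reads in the table, WT replicate 4 held 4683853, and the C2-/- libraries held 2613277 to 4917936. WT replicate 4 stood apart, with a value below those of the other WT libraries in 28 of the 33 genes. *Mybpc2* itself had at least 25665 reads in each WT library and at most 8 in each C2-/- library, as the labels state. Markers of muscle fibres were present in all libraries. Their summed level was 187409 to 217165 reads per 1e6 reads (CPM) in WT and 97517 to 117311 in C2-/-, and 5 of 8 were past the threshold as lower (2 of 8 after a correction for the GC content of transcripts). The summed level of 5 fibroblast markers was 453 to 774 CPM in WT and 1513 to 1863 in C2-/-, and 5 of 5 were past it as higher (3 of 5 after the correction). Macrophage markers summed to 18.9 to 36.4 CPM in WT and 46.8 to 68.5 in C2-/-, with 2 of 5 past it as higher (1 after the correction), and 3 adipocyte markers to 157 to 360 and 466 to 632, with 1 of 3 higher. Of all genes 25.0% were lower and 20.2% higher. In such bulk samples fewer cells of a type and less RNA per cell cannot be told apart, and the part of these shifts in the results was not tested.

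The neighbours of *Mybpc2* were lower in C2-/- as a group, and none was past the threshold as higher. The threshold was a limma adjusted p under 0.05 together with a change of more than 1.5-fold. By this rule 25 of the 33 genes fell in C2-/-, which is 75.8%, beside 25.0% of all 12239 genes. The number that rose was 0, beside 20.2% of all genes. The median log2 change was -1.66 over the 33 genes and -0.14 over all genes. In 24 of the 33 genes every C2-/- value lay below every WT value, as it did in 26.7% of all genes. The 8 genes not past the threshold were *Syt3*, *Nup62*, *Bcl2l12*, *Rras*, *Rcn3*, *Flt3l*, *Tead2* and *Ppp1r15a*. Of the 25 falls, 21 held when each library was left out in turn, and those of *Pih1d1*, *Vrk3*, *Atf5* and *Prmt1* did not. With the GC trend of each library corrected, 6 of the 33 were lower and 3 higher (median -0.31), and with WT replicate 4 as the only WT library 3 were lower.

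**Figure D1:**
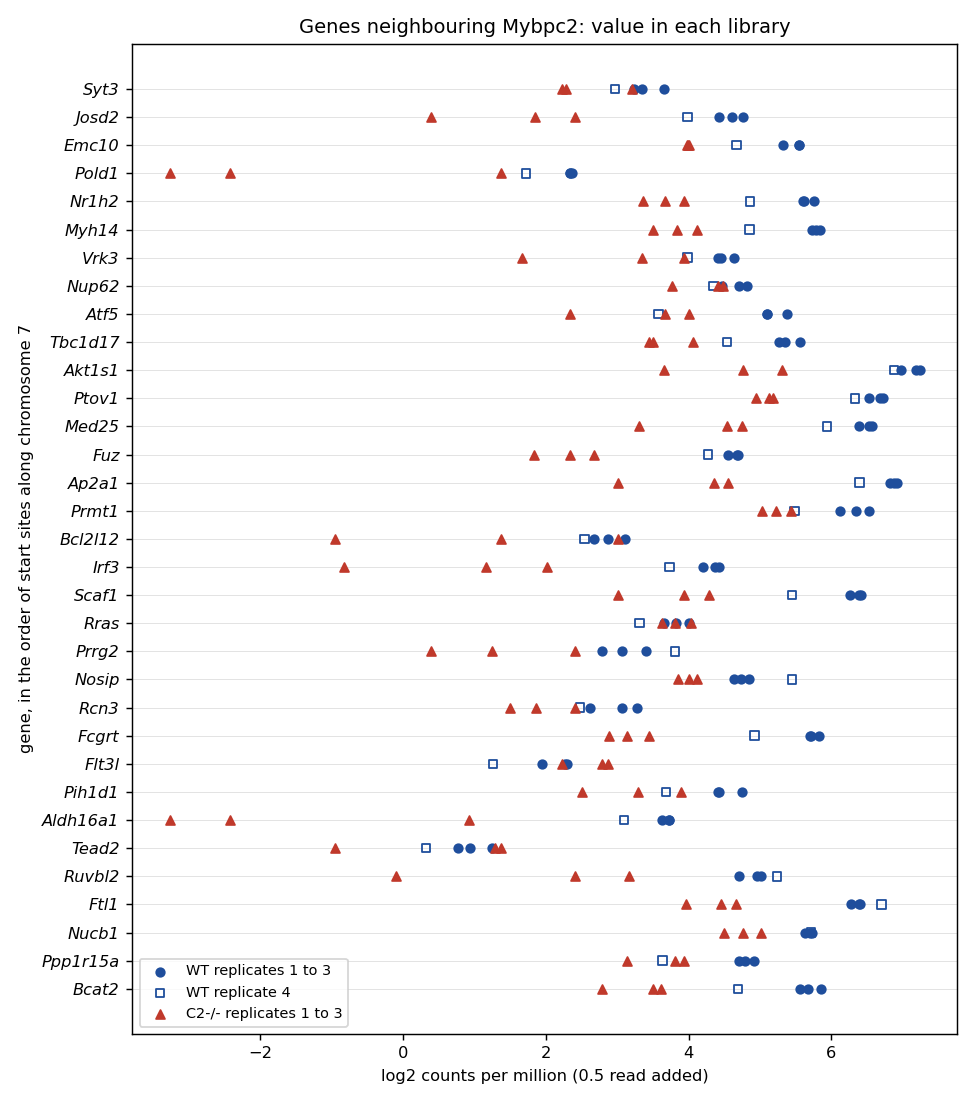
Value of each of the 33 genes in each library, in the order of their start sites, on the log2 CPM scale with 0.5 read added. Filled circles are WT replicates 1 to 3, open squares WT replicate 4 and triangles the 3 C2-/- libraries. The triangles lie left of all WT symbols in 24 genes, and *Aldh16a1* and *Pold1* have the lowest triangles, at -2.42 and -3.27.

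*Aldh16a1* fell most among these genes. Its log2 values in WT replicates 1 to 4 were 3.72, 3.62, 3.73 and 3.09, and those in C2-/- replicates 1 to 3 were 0.92, -2.42 and -3.27. All C2-/- values lay below all WT values, and the C2-/- libraries were spread widely. The log2 change was -5.13 (SE 0.88, adjusted p = 0.00168 by limma). Only *Mybpc2* fell further among the 12239 genes. In reads, *Aldh16a1* had 202, 184, 203 and 37 in WT and 5, 0 and 0 in C2-/-. The values for 0 reads are set by the 0.5 read added before the log, so the log2 change of this gene depends on depth. Summed over the C2-/- libraries, the 5 reads gave 0.48 CPM (95% exact Poisson interval 0.156 to 1.12), compared with 8.42 CPM in WT replicate 4 and up to 13.2 CPM in the other WT libraries. This is 5.71% of the level in WT replicate 4 (95% exact interval 1.75 to 14.6%, counting error only). At the level of WT replicate 4, the C2-/- libraries would have held 24.5, 22.5 and 40.7 reads. Without C2-/- replicate 1, 2 or 3 the log2 change was -6.39, -4.72 or -4.29, past the threshold each time. With quantile normalization it was -3.85 and with 2 reads added -3.70, also past the threshold.

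The genes beside *Aldh16a1* had smaller changes, and the difference from the closest, *Pih1d1*, was tested. The WT log2 values of *Pih1d1*, replicates 1 to 4, were 4.41, 4.42, 4.75 and 3.68, and the C2-/- values were 3.29, 3.89 and 2.51. WT replicate 4 lay below C2-/- replicate 2, so the groups overlapped. The log2 change was -1.09 (SE 0.38, adjusted p = 0.0388 by limma), and leaving out WT replicate 1, 2 or 3 or C2-/- replicate 1 or 3 ended the call, with adjusted p of 0.0731 to 0.126. In each library the value of *Aldh16a1* was set against that of *Pih1d1*. The difference was -0.68, -0.80, -1.02 and -0.59 in WT replicates 1 to 4 (-0.78 ± 0.19, SD, n = 4) and -2.37, -6.30 and -5.78 in C2-/- replicates 1 to 3 (-4.82 ± 2.13, SD, n = 3). The shift of -4.04 had an exact permutation p of 0.02857 (two-sided), the smallest that 35 assignments of 7 libraries allow, and all 3 C2-/- libraries lay below all WT libraries. With quantile normalization the shift was -2.92. This pair of genes was chosen with the fall of *Aldh16a1* known, so the p is not independent support, and the size of the shift depends on the 0.5 read added. Against the mean of the other 32 genes, *Aldh16a1* stood 1.04 to 1.21 lower in WT on the log2 scale, and in C2-/- the difference was -2.48, -5.17 and -6.30.

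**Figure D2:**
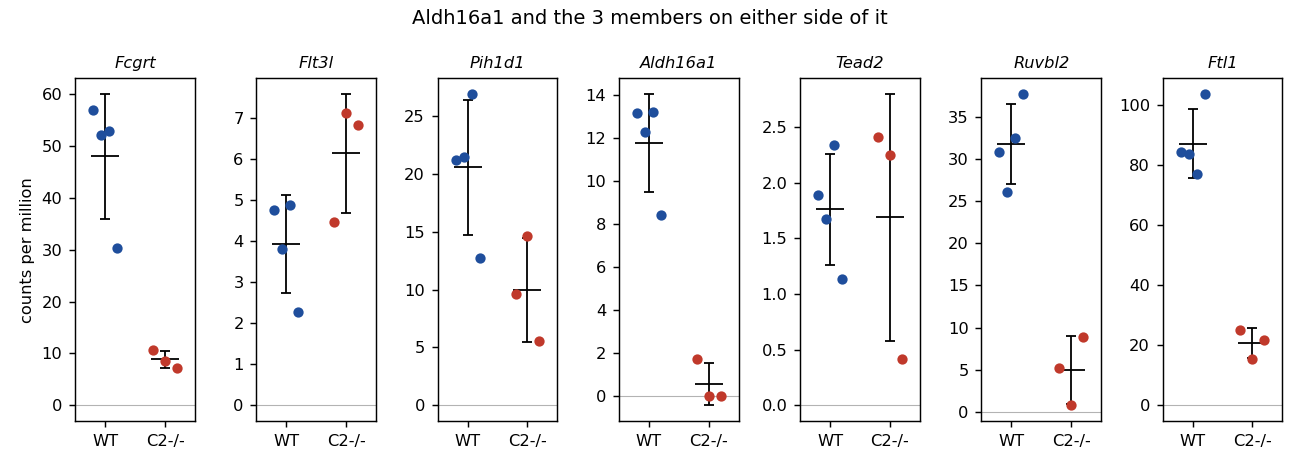
CPM of *Aldh16a1* and the 3 analysed genes on either side of it, in chromosome order, each panel with its own axis. Points are libraries, and the line and bars are the mean and SD of 4 WT and 3 C2-/- libraries. *Aldh16a1* lies at 8.42 to 13.2 CPM in WT and 0 to 1.72 CPM in C2-/-, whereas *Flt3l*, *Pih1d1* and *Tead2* overlap between the groups.

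On the low-coordinate side of this pair lie *Flt3l*, which encodes a cytokine that drives dendritic cell development, and *Fcgrt*, which encodes the neonatal Fc receptor that salvages IgG and albumin. *Flt3l* had log2 values of 2.26, 1.94, 2.30 and 1.26 in WT and 2.22, 2.87 and 2.79 in C2-/-. The groups overlapped and the log2 change was 0.69 (SE 0.43, adjusted p = 0.207). Its exons share 856 bases with the same-strand transcript Gm45713, so reads in those bases cannot be told apart. *Fcgrt* had values of 5.83, 5.70, 5.72 and 4.92 in WT and 3.44, 3.14 and 2.88 in C2-/-. All C2-/- values lay below all WT values, and *Fcgrt* fell by 2.39 (SE 0.28, adjusted p = 0.000368).

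On the other side, *Tead2*, a transcription factor of the Hippo pathway, was scarce in both groups. Its log2 values were 0.94, 0.77, 1.25 and 0.32 in WT and 1.37, 1.28 and -0.95 in C2-/-, from 36 reads or fewer per library. The change of -0.25 (SE 0.69, adjusted p = 0.779) was not detectable at this depth. *Ruvbl2*, the ATPase that works with *Pih1d1* in R2TP, had values of 4.95, 4.71, 5.02 and 5.24 in WT and 2.41, -0.10 and 3.17 in C2-/-. *Ruvbl2* fell by 3.15 (SE 0.64, adjusted p = 0.00348), with the lowest value in C2-/- replicate 2, and its GC-corrected change was -1.71 (adjusted p = 0.0616), not past the threshold. *Ftl1* encodes the light chain of ferritin, the iron store of the cell. Its values were 6.40, 6.39, 6.27 and 6.70 in WT and 4.66, 3.96 and 4.45 in C2-/-, a fall of 2.08 (SE 0.22, adjusted p = 0.000276). Its GC-corrected change of -0.62 (adjusted p = 0.0815) was not past the threshold. Reads of *Ftl1* may be shared with processed copies elsewhere in the genome, and how multiply mapped reads were treated is not given in the sources used here.

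Of the 3 analysed genes on either side of *Mybpc2*, all but *Syt3* fell, and none was past the threshold once the GC trend of each library had been corrected. On the high-coordinate side, *Pold1*, the catalytic subunit of DNA polymerase delta, starts 24.1 kb away. Its log2 values were 2.37, 2.33, 2.33 and 1.72 in WT and 1.37, -2.42 and -3.27 in C2-/-. This is the pattern of *Aldh16a1* at a lower level, with 79, 75, 77 and 14 reads in WT and 7, 0 and 0 in C2-/-. The fall was 3.63 (SE 0.99, adjusted p = 0.0138). Its 7 C2-/- reads amounted to 21.1% of the level in WT replicate 4 (95% exact interval 7.21 to 55.9%). *Nr1h2* encodes the nuclear receptor LXR-beta, a sensor of oxysterols, and starts 29.3 kb away. It had values of 5.61, 5.60, 5.75 and 4.86 in WT and 3.94, 3.36 and 3.67 in C2-/-, a fall of 1.80 (SE 0.27, adjusted p = 0.000994). *Myh14*, the non-muscle myosin heavy chain IIC, starts 146 kb away. It had 5.73, 5.84, 5.79 and 4.85 in WT and 3.84, 4.12 and 3.50 in C2-/-, a fall of 1.73 (SE 0.29, adjusted p = 0.00152). In these 3 genes no C2-/- value reached the lowest WT value. The GC-corrected changes were -1.88 for *Pold1* (adjusted p = 0.159), -0.06 for *Nr1h2* and 0.02 for *Myh14*.

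On the low-coordinate side of *Mybpc2* the nearest analysed gene was *Emc10*, a subunit of the complex that inserts proteins into the endoplasmic reticulum membrane, which starts 28.3 kb away. Its values were 5.32, 5.54, 5.54 and 4.67 in WT and 4.00, 3.99 and 3.97 in C2-/-, a fall of 1.28 (SE 0.26, adjusted p = 0.0033). *Josd2*, a deubiquitinating enzyme 56.7 kb away, had 4.60, 4.42, 4.76 and 3.98 in WT and 1.85, 0.39 and 2.40 in C2-/-. *Josd2* fell by 2.89 (SE 0.47, adjusted p = 0.00135), more than *Emc10* between it and *Mybpc2*. *Syt3*, a calcium sensor of vesicle fusion 141 kb away, had 3.23, 3.65, 3.35 and 2.97 in WT and 2.22, 3.20 and 2.28 in C2-/-. Here the groups overlapped and the change of -0.73 (SE 0.37, adjusted p = 0.124) was not past the threshold. The GC-corrected changes were 0.47 for *Emc10*, -0.95 for *Josd2* (adjusted p = 0.106) and 0.87 for *Syt3*.

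The falls were compared with the distance from *Mybpc2*. All 4 listed and analysed genes within 100 kb fell, with a median log2 change of -2.35. From 100 to 400 kb 8 of 10 fell (median -1.50), from 400 to 600 kb 7 of 10 fell (median -1.78), and from 600 to 1100 kb 6 of 9 fell (median -1.09). Of all genes 25.0% fell. The share that fell was highest in the nearest bin and lowest in the farthest, which was not tested. The bins also differed in GC content, with medians of 60.7, 59.1, 57.3 and 57.4% from the nearest to the farthest. Across the 33 genes Spearman's rho between distance and log2 change was 0.11 and Pearson's r was 0.07, given as a description because the genes share the same libraries. After the GC correction 0 of 4, 1 of 10, 3 of 10 and 2 of 9 genes were lower in these bins, beside 8.33% of all genes. The median within 100 kb was then -0.50, and Spearman's rho was -0.06. The other 38 genes of the table within 1500 kb of *Mybpc2*, which were not on the list, had a median change of -1.51, with 22 lower and 2 higher. The other 862 genes of chromosome 7 had a median of -0.64, with 303 lower and 108 higher. Among the unlisted genes of the interval past the threshold, those nearest to *Aldh16a1* were *Prr12* (log2 change -1.82), *Rpl14-ps1* (-0.90) and *Trpm4* (-3.02).

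**Figure D3:**
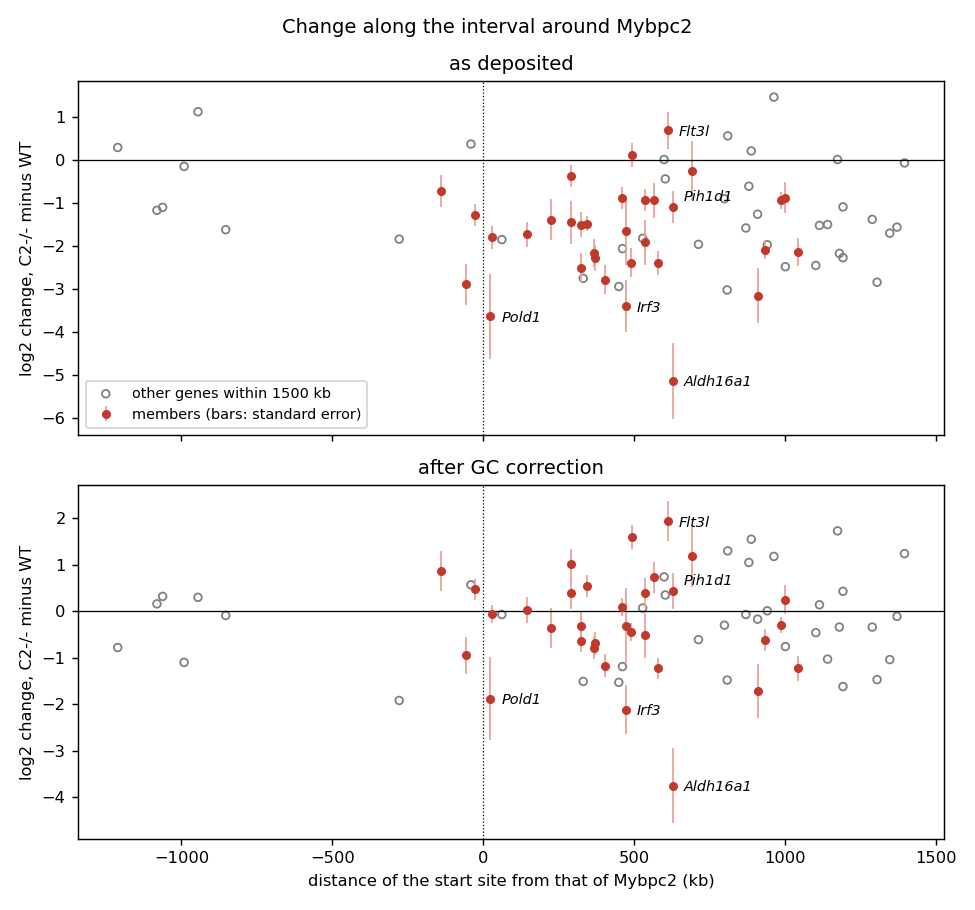
Log2 change (C2-/- minus WT) against the distance in kb of each start site from that of *Mybpc2*, which is not drawn, before (top) and after (bottom) the GC correction. Red points with standard errors are the 33 genes and open circles the other 38 genes within 1500 kb. In the top panel 31 of the 33 red points and 30 of the 38 open circles lie below 0, in the bottom panel 19 and 22 do, and *Aldh16a1* is lowest in both.

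These genes are GC-rich, and GC content moved with the change over all genes. All 33 had a transcript GC content above the median of all genes (50.2%), from 52.7% for *Nucb1* to 64.1% for *Ptov1*. Across 12176 genes Spearman's rho between GC content and log2 change was -0.68, and across the 33 genes it was -0.26. In genes of 56 to 58% GC, the bin that holds *Aldh16a1* (57.4%) and 11 of the 33 genes, the median change was -1.28. The log2 values were therefore also compared after the GC trend of each library had been replaced by the mean trend of the 7 libraries. After this GC correction the median change was -0.31 over the 33 genes, 0.02 over all genes, -0.10 over the other 38 genes of the interval and -0.07 over the rest of chromosome 7. The number that fell was 6 of 33 (18.2%), beside 8.33% of all genes, and 3 of 33 (9.09%) rose, beside 12.3% of all genes. Whether GC content itself or something that varies with it sets the trend was not tested.

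**Figure D4:**
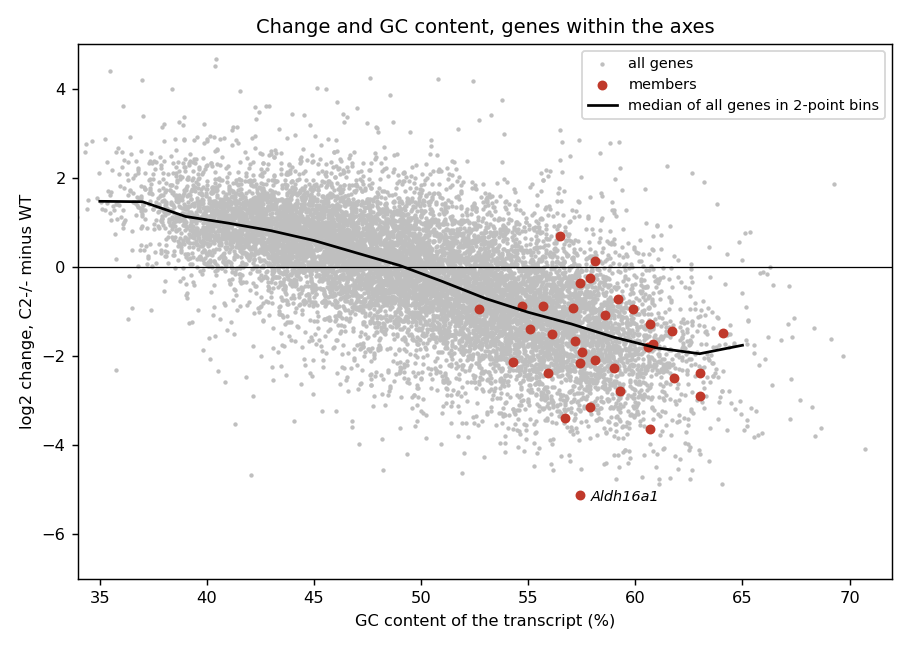
Log2 change (C2-/- minus WT) against transcript GC content for all genes within the axes (grey, 13 of 12176 lie outside) and for the 33 genes (red). The black line joins the medians of all genes in bins of 2 percentage points that hold at least 20 genes. The red points lie in the GC-rich range where the line runs from about -0.71 to -1.95, on both sides of it, and *Aldh16a1* lies far below it.

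After the GC correction *Aldh16a1* still had the largest fall of the 33 genes. Its corrected log2 change was -3.75 (SE 0.80, adjusted p = 0.0104), which ranked 13 among 12176 genes ordered from the largest fall. It stayed past the threshold without each library in turn (-4.83 to -2.91). The corrected change of *Pih1d1* was 0.44 (SE 0.39, adjusted p = 0.457), and that of *Tead2* was 1.19 (adjusted p = 0.23). *Flt3l* was higher in C2-/- after the correction, by 1.94 (SE 0.43, adjusted p = 0.0124). *Fcgrt*, which starts closer to *Aldh16a1* than *Tead2* does, was lower after the correction as well (-1.23, adjusted p = 0.00637). The shift of the difference between *Aldh16a1* and *Pih1d1* was -4.18 after the correction.

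The other genes lower after the correction were *Irf3*, *Fcgrt*, *Bcat2*, *Ap2a1* and *Med25*. *Irf3* encodes a transcription factor that induces interferon genes. Its log2 values were 4.37, 4.20, 4.42 and 3.73 in WT and 1.16, -0.83 and 2.01 in C2-/-. *Irf3* fell by 3.40 (SE 0.60, adjusted p = 0.00195), and its corrected change was -2.12 (SE 0.53, adjusted p = 0.0209), a call that ended without WT replicate 1, 2 or 3. The corrected changes were -1.23 for *Fcgrt* (adjusted p = 0.00637), -1.23 for *Bcat2* (adjusted p = 0.00976) and -1.17 for *Ap2a1* (adjusted p = 0.0105), and these calls held without each library in turn. *Bcat2* is the mitochondrial branched-chain aminotransferase and *Ap2a1* a subunit of the clathrin adaptor AP-2. *Med25*, a Mediator subunit, had a corrected change of -0.78 (adjusted p = 0.0478), a call made in 1 of 7 fits with a library left out. The genes higher after the correction were *Flt3l*, *Rras*, a small GTPase of the Ras family (1.59, adjusted p = 0.00379), and *Nup62*, a nuclear pore protein (1.01, adjusted p = 0.0468, a call made in 1 of 7 such fits). *Rras* had a change of 0.12 before it.

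With WT replicate 4, the WT library closest in depth to C2-/-, as the only WT library, the fall of most of these genes was not past the threshold. The mean of C2-/- lay below WT replicate 4 in 30 of the 33 genes and the median difference was -1.25, compared with -0.12 over all genes. Every C2-/- value lay below WT replicate 4 in 24 of the 33 genes, and in 35.4% of all genes. *Akt1s1*, *Ap2a1* and *Ftl1* were past the threshold, 3 of 33 genes beside 1.97% of all genes. The lone WT library was assumed to vary like the C2-/- libraries in this fit. *Aldh16a1* had a change of -4.68 (adjusted p = 0.207).

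By function, the counts of each group stand beside 25.0% of all genes lower before the GC correction and 8.33% after it, and *Irf3* is counted both with transcription and with the immune genes. Of 10 genes of transcription and chromatin 9 fell, all but *Tead2*. Among them were *Scaf1* (-2.39), a splicing-associated factor, *Med25* (-2.16), *Ptov1* (-1.48) and *Prmt1* (-0.88), the main asymmetric arginine methyltransferase. *Pih1d1* is counted in this group, and the falls of *Pih1d1*, *Atf5* and *Prmt1* did not hold without each library in turn. After the GC correction 2 of these 10 were lower, and the median of the group was 0.01. All 5 genes of membrane traffic and membrane proteins fell, with *Ap2a1* at -2.78, *Fuz* (-2.27), a planar cell polarity effector needed for cilia, *Prrg2* (-1.91), *Tbc1d17* (-1.51), a GTPase-activating protein for Rab proteins, and *Emc10*. After the correction 1 of the 5 was lower.

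In metabolism and iron the 3 analysed genes, *Aldh16a1*, *Bcat2* (-2.14) and *Ftl1*, fell, and 2 of 3 were lower after the correction. Of 4 genes of DNA and the cell cycle *Pold1* and *Vrk3* (-1.39) fell, whereas *Bcl2l12* (-1.66, adjusted p = 0.102) and *Nup62* (-0.37, adjusted p = 0.262) were not past the threshold. Of 4 signalling genes *Akt1s1* and *Nosip* (-0.93), an interactor of nitric oxide synthase, fell, and *Rras* and *Ppp1r15a* (-0.88, adjusted p = 0.066), the stress-induced GADD34, were not past it. Of the secretory calcium-binding proteins *Nucb1* fell by 0.94 (adjusted p = 0.00368), whereas *Rcn3* at -0.94 (adjusted p = 0.0802) did not pass. Of the immune genes *Irf3* and *Fcgrt* fell and *Flt3l* was not past the threshold, and of the cytoskeletal and synaptic genes *Myh14* fell and *Syt3* was not past it. With the GC correction none of the genes of DNA and the cell cycle or of signalling was lower and 1 of each group, *Nup62* and *Rras*, was higher. None of the secretory, cytoskeletal and synaptic genes nor *Josd2* was lower or higher after it, whereas *Irf3* and *Fcgrt* were lower and *Flt3l* was higher. *Rcn3* and *Nucb1* had the same size of change with different spread among WT libraries, with an SD of 0.37 and 0.04.

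The highest mean log2 value of the 33 genes was that of *Akt1s1*, which encodes PRAS40, an inhibitor of mTORC1. It had 6.97, 7.19, 7.24 and 6.88 in WT and 5.31, 3.65 and 4.76 in C2-/-, so no values overlapped. *Akt1s1* fell by 2.50 (SE 0.33, adjusted p = 0.000583), and its corrected change was -0.65 (adjusted p = 0.0641). The lowest mean over all 7 libraries was that of *Pold1*, where the values for 0 reads are set by the 0.5 read added, and in WT *Tead2* was lowest (0.82, compared with 2.19 for *Pold1*). Per length, *Ftl1* stood at 90.1 CPM per kb of transcript in WT and 21.4 in C2-/-, *Akt1s1* at 74.6 and 14.5, *Aldh16a1* at 3.33 and 0.162, and *Tead2* at 0.518 and 0.498. *Aldh16a1* was thus among the lower of these genes in WT and below *Tead2* in C2-/-. Of the C2-/- libraries, replicate 2 had the lowest value in 18 of the 33 genes, replicate 3 in 10 and replicate 1 in 5. For *Aldh16a1* and *Pold1* replicates 2 and 3 both had 0 reads.

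Like *Aldh16a1* and *Pih1d1*, 4 other pairs of these genes start within 1500 bases of each other on opposite strands. *Irf3* and *Bcl2l12* start 69 bases apart. *Irf3* had 6, 1 and 19 reads in C2-/- replicates 1 to 3, and *Bcl2l12*, an inhibitor of apoptosis, had 7, 21 and 2, so the libraries were not in the same order. The 250 bases before *Irf3* (chr7:44997398-44997647, plus strand) are shown as the counterpart of the *Aldh16a1* stretch, with the same motifs in capitals.
Irf3: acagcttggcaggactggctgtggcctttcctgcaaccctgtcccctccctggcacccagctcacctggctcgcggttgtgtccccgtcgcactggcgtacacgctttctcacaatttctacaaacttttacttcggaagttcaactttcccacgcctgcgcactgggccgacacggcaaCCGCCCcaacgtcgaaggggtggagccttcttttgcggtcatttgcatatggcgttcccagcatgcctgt
It held 1 GC box. The corrected changes were -2.12 for *Irf3* and -0.31 for *Bcl2l12*. In the pairs *Nup62* and *Atf5* (570 bases apart), *Prrg2* and *Nosip* (777 bases) and *Tbc1d17* and *Akt1s1* (1293 bases), the uncorrected changes were -0.37 and -1.45, -1.91 and -0.93, and -1.51 and -2.50. With the GC correction they were 1.01 and 0.39, -0.52 and 0.40, and -0.32 and -0.65. *Atf5* encodes a stress-response transcription factor. No pair other than *Aldh16a1* and *Pih1d1* was tested for a difference between its partners.

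Shared exonic sequence limits how far single genes can be read. Exons of 21 of the 33 genes share bases with another annotated gene, mostly on the opposite strand, and the use of strand in counting is not given in the sources used here. The overlap was 35.2% of the exonic bases of *Tbc1d17* (with *Il4i1*), 28.9% of *Bcl2l12*, 26.5% of *Ftl1* with Gm10252, 24.1% of *Fuz* with D7Bwg0826e and 22.1% of *Flt3l*. For *Aldh16a1* it was 2.65%, and for *Pih1d1* 7.38%.

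The other aldehyde dehydrogenases had smaller changes than *Aldh16a1*. Of 19 genes of the family listed, 14 were in the table, of which 3 fell (21.4%, beside 25.0% of all genes) and 1 rose (7.14%, beside 20.2%), with a median log2 change of -0.22. *Aldh2*, the mitochondrial enzyme that clears acetaldehyde, fell most, by 2.56 (adjusted p = 0.00281), followed by *Aldh4a1* (-1.53) of proline breakdown and *Aldh1l1* (-1.18) of folate metabolism. *Aldh6a1*, of valine breakdown, rose by 0.95 (adjusted p = 0.00164). After the GC correction *Aldh2* was the 1 gene of the 14 past the threshold, at -1.57.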

How the data were processed

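RNA of 7 tibialis anterior libraries (4 WT, 3 C2-/-) was compared. The authors selected mRNA on oligo(dT) beads, aligned reads to GRCm38.p6 with HISAT, counted them with featureCounts 1.5.2 and scaled libraries by edgeR TMM. They deposited log2 values, which equal log2 of whole reads plus 0.5 per 1e6 reads; 100% of the values gave whole reads (largest departure 2.2e-08), and depth was 2613277 to 15464499 reads. The filter on genes is not given in the sources used here. A deposited table of the authors' comparison was not used. A floor of 3 reads is 0.195 to 1.12 CPM, covering counting error only.

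The deposited log2 values were fitted with limma 3.58.1 (R 4.3.3; lmFit, eBayes with trend; genotype only; all 12239 genes; Benjamini-Hochberg; adjusted p under 0.05 and more than 1.5-fold). The GC correction replaced a natural spline (5 df) of each library on transcript GC content by the mean spline, over 12176 genes (99.5%) matched to GENCODE. Positions came from RefSeq for GRCm38.p6, with 504 genes matched by an older symbol. Fits were tested on simulated data. Distances run between start sites.

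Genes with values in full were *Aldh16a1* and the 3 analysed genes on either side, the 3 on either side of *Mybpc2*, up to 3 largest falls and rises past the threshold with no overlap (there was no such rise), and the highest and lowest mean value. The genes, lists and rules were chosen with earlier results of these data known. Same-numbered libraries did not deviate together (r -0.0643 to 0.0532). Alternatives were voom, quantile normalization, median centring, the GC correction, filters, pseudocounts, thresholds, weights and left-out libraries. Of the other genes of the interval, some results are not reported here.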

Additional observations from a re-analysis of the deposited data

Results flagged for a closer look

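In 9 of 35 sets of 4 WT values examined (33 genes, *Mybpc2* and the reads in the table), WT replicate 4 lay farther from the other WT libraries than Dixon's 95% limit allows, and it lay below them each time. Chance would single out about 1 in 20 such sets, here 1.75. The sets are values of the same 4 libraries and are not independent, so 9 beside 1.75 is a description and not a test. The reads in the table were 4683853 in WT replicate 4 and 14929214 to 15464499 in the others. The log2 value of WT replicate 4 was 3.09 for *Aldh16a1* (others 3.62 to 3.73), 4.92 for *Fcgrt* (5.70 to 5.83), 5.45 for *Scaf1* (6.26 to 6.41) and 3.58 for *Atf5* (5.10 to 5.38). It was 4.85 for *Myh14* (5.73 to 5.84), 4.86 for *Nr1h2* (5.60 to 5.75), 1.72 for *Pold1* (2.33 to 2.37) and 3.63 for *Ppp1r15a* (4.70 to 4.91). In 19 of the 33 genes WT replicate 4 lay between the other WT libraries and all C2-/- libraries. The 3 C2-/- libraries were too few for this test.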

How the results depend on the processing

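Counts of the 33 genes lower in C2-/- ranged from 21 to 26 without each library in turn, and their median log2 change from -1.77 to -1.55, beside 25 and -1.66. The other normalizations, pseudocount, spread and threshold settings gave 18 (adjusted p under 0.01) to 28 (library quality weights) lower and 0 higher, among them voom on recovered reads with 27 (6015 of all genes) and median centring with 22, which moved the median of all genes from -0.14 to 0.02. With the GC correction 6 were lower and 3 higher, and the median was -0.31. With WT replicate 4 as the only WT library 3 were lower and the median was -1.25. All genes past the threshold numbered 5528, with 2508 after the GC correction, 554 with WT replicate 4 as the only WT library, 3216 at an adjusted p under 0.01 and 4095 to 6136 without each library. In the aldehyde dehydrogenase family 4 were past it, with 1 after the GC correction, 0 with WT replicate 4 only and 3 to 6 without each library.

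*Aldh16a1* changed by -6.39 to -4.29 without each library, and by -4.68 (adjusted p = 0.207) with WT replicate 4 as the only WT library. After the GC correction it was -4.83 to -2.91 without each library and -3.63 (adjusted p = 0.471) against WT replicate 4 alone. In that last fit 0 genes of the 33 were lower and 0 higher by limma, and 20 of all genes passed. Without each library, 4 to 8 were lower and 2 to 4 higher after the GC correction. The *Pih1d1* change of -1.09 was not past the threshold with quantile normalization (-0.92), median centring (-0.93), eBayes without trend (-1.09) or WT replicate 4 only (-0.45), was 0.44 after the GC correction, and was -1.42 to -0.73 without each library. *Aldh16a1* minus *Pih1d1* was -5.27 to -3.30 without each library and -2.92 with quantile normalization, and *Aldh16a1* itself was -3.85 with quantile normalization and -3.70 with 2 reads added.

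Changes of sign after the GC correction were seen for *Rcn3* (0.73), *Nosip* (0.40), *Prmt1* (0.09), *Ptov1* (0.54), *Atf5* (0.39), *Nup62* (1.01), *Myh14* (0.02), *Emc10* (0.47), *Syt3* (0.87), *Ppp1r15a* (0.25) and *Tead2* (1.19). *Tead2* also did so with quantile normalization (0.56), 2 reads added (0.02) and WT replicate 4 only (0.24), and ranged from -0.65 to 0.50 without each library. *Rras* did so with the replicate block (-0.01), and ranged from -0.01 to 0.23 without each library. The cause was not tested. The replicate block, for numbers that do not pair the libraries, gave 26 lower genes, 5901 of all genes, -5.28 for *Aldh16a1* and -3.98 for *Aldh16a1* minus *Pih1d1*. With the GC correction the block gave 7 lower and 4 higher. Fits with a left-out library or a single WT library assume that all libraries vary alike. Depth limits genes with few reads, among them *Aldh16a1*, *Pold1* and *Tead2*, whose log2 changes depend on the reads added.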
